A study of Mus musculus with 6 samples.

Results

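The genes described here are 36 genes of cholesterol and fatty acid synthesis, chosen by name from the 24391 genes of the deposited tables. They fall into a sterol arm of 18 enzymes, a fatty acid arm of 9 enzymes, 5 genes that control both arms and 4 genes of sterol transport. Their RNA was measured by sequencing in KMT2D KO cells (3 libraries) and in KMT2D WT cells (3 libraries) from iBIP mice, a mouse model of melanoma. Both groups carried the iBIP alleles on a mixed FVB and B6 background. These include Tyr-CreERT2, a tamoxifen-activated Cre under the promoter of tyrosinase that is active in melanocytes, Rosa26-rtta, a doxycycline-driven mutant BRAF transgene, and floxed alleles, among them INK/ARF. KMT2D KO cells came from iBIP;KMT2D L/L mice and KMT2D WT cells from iBIP;KMT2D +/+ mice. In both groups ear tumours were raised with doxycycline and 4-OHT, and the cells were kept in high-glucose DMEM with GlutaMAX. The labels' protocols do not give the age of the mice. Nor do they state if each library stands for its own culture, tumour or animal, so the p-values reflect the scatter among 3 libraries a group and may cover technical scatter alone. A difference between the genotypes and a difference between the tumours of origin cannot be told apart.

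Cholesterol is built from acetyl-CoA through mevalonate, isoprenoid units, squalene and a run of sterol intermediates, and fatty acids are built from the same acetyl-CoA by carboxylation, chain synthesis, elongation and desaturation. Both arms are switched on by SREBP transcription factors, which are carried out of the endoplasmic reticulum by SCAP and held back there by INSIG proteins when sterols are plentiful. SREBP2 acts mainly on sterol genes and SREBP1 mainly on fatty acid genes, and liver X receptors (LXR) drive the export of excess sterol. The enzyme encoded by Kmt2d places methyl marks on histone H3, mainly at enhancers.

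Across the series, total counts lay between 55594979 and 79718782 in KMT2D KO libraries and between 43168605 and 59360068 in KMT2D WT libraries. Kmt2d itself had 73.0, 69.3 and 79.8 CPM (counts scaled to a common library size) in KMT2D KO libraries, against 79.7, 87.6 and 101 CPM in KMT2D WT libraries. The log2 fold change of Kmt2d, with its SE, was -0.27 ± 0.08 by edgeR's quasi-likelihood test (adjusted p = 0.0075), but leaving out KMT2D KO replicate 2 gave -0.21 (adjusted p = 0.058) and leaving out KMT2D WT replicate 3 gave -0.17 (adjusted p = 0.023). The values of Kmt2d overlapped between the groups at the top of KMT2D KO and the bottom of KMT2D WT, and the counts cover the whole gene, so they do not show whether the floxed exons were lost. Of 14579 genes tested, 10345 were called at an adjusted p under 0.05, with 5164 higher and 5181 lower in KMT2D KO. The 4 tested genes of the Y chromosome all fell, with a median log2 fold change of -7.58. The melanocyte markers summed to 50.4 to 59.1 CPM in KMT2D KO libraries and 15.9 to 17.4 CPM in KMT2D WT libraries, nearly all of it Mitf, while Tyr, Tyrp1, Dct, Kit and Gpr143 stayed under 0.1 CPM in both groups. The defining pigment markers of melanocytes were thus at or near 0 in cells labelled as melanoma. Fibroblast markers summed to 13807 to 14347 CPM in KMT2D KO libraries and 4747 to 4908 CPM in KMT2D WT libraries, most of it Col1a1, Col1a2 and Pdgfra. Of the 8 fibroblast markers 4 averaged at least 1 CPM in KMT2D KO and 6 in KMT2D WT, and Dpt fell to 0.839 CPM in KMT2D KO, against 44.8 CPM in KMT2D WT, as did Lum to 0.527 CPM in KMT2D KO, against 1.30 CPM in KMT2D WT. For the adipocyte list, whose cell type is rich in fatty acid enzymes, the sums were 26.8 to 28.1 CPM in KMT2D KO libraries and 5.70 to 7.11 CPM in KMT2D WT libraries. Adipoq, Plin1, Cidec, Lep, Retn and Cfd were under 0.1 CPM in both groups, and Pparg, the nuclear receptor of fat cell differentiation, made up most of the sum in KMT2D KO, while Fabp4 fell to 0.127 CPM in KMT2D KO, against 2.37 CPM in KMT2D WT. The summed ranges were 4.51 to 5.52 CPM in KMT2D KO libraries and 12.04 to 20.6 CPM in KMT2D WT libraries for immune cells, and 70.5 to 77.3 CPM in KMT2D KO libraries and 19.5 to 22.9 CPM in KMT2D WT libraries for keratinocytes. Of the keratinocyte markers Perp and Trp63 rose, Dsp fell to 1.06 CPM in KMT2D KO, against 6.25 CPM in KMT2D WT, and Krt5, Krt14, Krt1 and Krt10 were not called. The sums were 0.508 to 1.03 CPM in KMT2D KO libraries and 1.12 to 2.29 CPM in KMT2D WT libraries for endothelium, and 4.66 to 5.40 CPM in KMT2D KO libraries and 1.18 to 2.26 CPM in KMT2D WT libraries for cerebellum. Most of the cerebellum sum in KMT2D KO was Cbln3 and Mbp, at 2.35 and 2.54 CPM, against 0.279 and 0.901 CPM in KMT2D WT. Pcp2 and Gfap were lower in KMT2D KO, at 0.045 and 0.095 CPM, against 0.216 and 0.228 CPM in KMT2D WT. Cbln1, Gabra6, Calb1 and Neurod1 were under 0.1 CPM in both groups. Cerebellar tissue is named in the labels' extraction protocol, which goes against the tumour cells of the other labels. Sums of a marker list do not tell fewer cells of a type from less RNA per cell, and their part in the results on lipid genes was not tested.

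The lipid genes did not move as a block. Of the 36 genes, 35 passed the filter on low counts, and 9 of these rose and 17 fell in KMT2D KO, while 9 were not called. That is 74.3% called, beside 71.0% of all genes tested, so the number of calls was near the background. The libraries of the groups were fully apart for 27 of the 35, with KMT2D KO above in 10 and below in 17, beside 37.2% above and 37.1% below among all genes tested. The median log2 fold change of the 35 was -0.11, beside 0.00 over all genes tested. Sterol enzymes fell more often than they rose (10 lower and 5 higher among 17 tested), and of the 9 fatty acid enzymes 3 were lower, 2 higher and 4 not called. Of all genes tested, 35.5% were called lower and 35.4% higher. The steepest changes were single genes: Abcg1, Idi1 and Sc5d fell by 5.97, 1.99 and 1.56 on the log2 scale, and Ebp, Fads2 and Fads1 rose by 1.24, 1.21 and 1.06. These 6 genes passed an absolute log2 fold change of 1, a size that 26.8% of all genes tested reached together with a call.

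**Figure D1:**
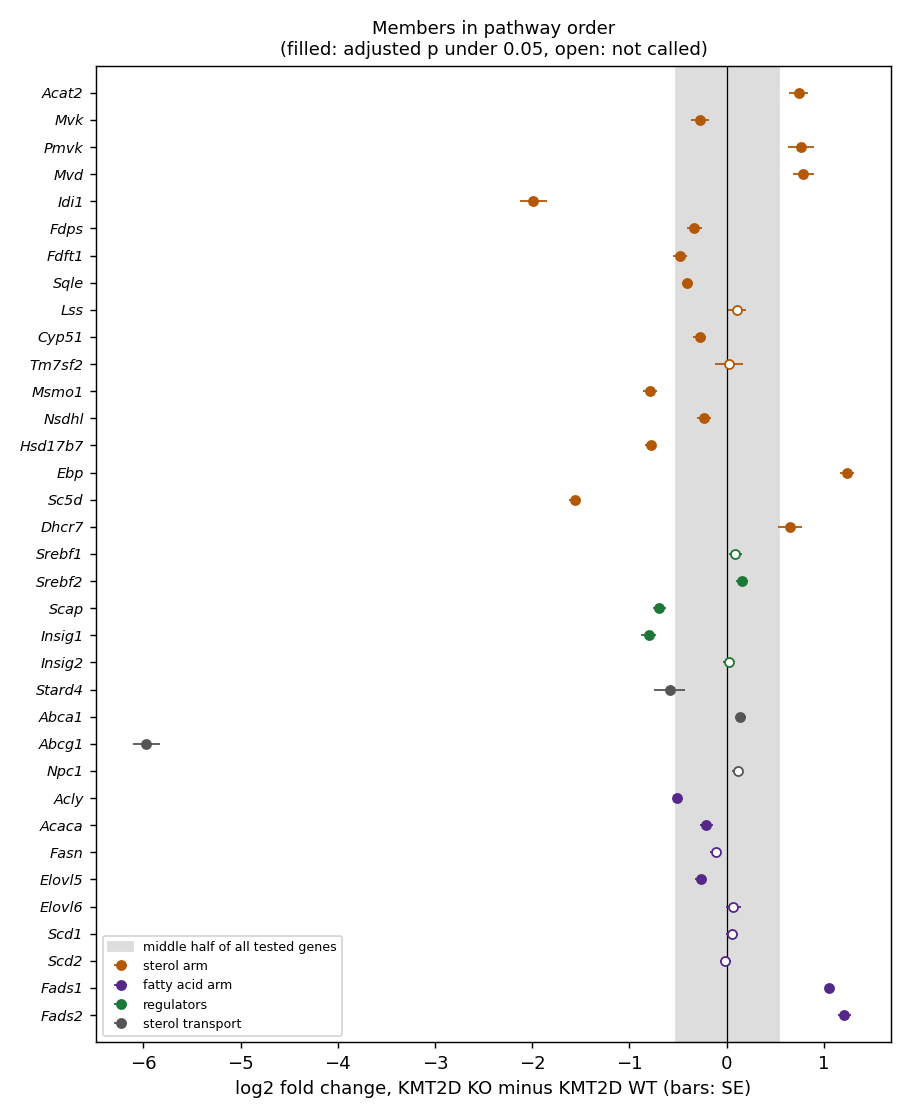
Log2 fold change (KMT2D KO minus KMT2D WT, x axis) of the 35 tested genes in pathway order, with bars for the SE; filled points were called at an adjusted p under 0.05 and open points were not. The grey band runs between the lower and upper quartile of all tested genes (-0.52 to 0.54), and Abcg1 at -5.97, Idi1 at -1.99 and Sc5d at -1.56 lie farthest to its left.

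Promoters are shown for the 4 of the 6 steepest genes that had a RefSeq promoter at hand, so not for Abcg1 or Fads1. Genes picked by their fold change do not show how far the arms share sequence at their start sites. Each line is the RefSeq window (GRCm38.p6) of 250 bases before to 50 bases after the start, 5′ to 3′, with every CCAAT and its complement ATTGG in capitals. CCAAT is the box bound by NF-Y, a factor that works beside SREBP at sterol promoters.
Idi1 (chr13:8885356-8885655, plus strand): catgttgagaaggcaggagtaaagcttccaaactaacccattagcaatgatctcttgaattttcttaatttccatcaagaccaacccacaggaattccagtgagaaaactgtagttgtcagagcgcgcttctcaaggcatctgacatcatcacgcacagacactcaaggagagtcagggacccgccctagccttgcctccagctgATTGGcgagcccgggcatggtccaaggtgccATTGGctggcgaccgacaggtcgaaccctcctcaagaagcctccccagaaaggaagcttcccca
Sc5d (chr9:42264251-42264550, minus strand): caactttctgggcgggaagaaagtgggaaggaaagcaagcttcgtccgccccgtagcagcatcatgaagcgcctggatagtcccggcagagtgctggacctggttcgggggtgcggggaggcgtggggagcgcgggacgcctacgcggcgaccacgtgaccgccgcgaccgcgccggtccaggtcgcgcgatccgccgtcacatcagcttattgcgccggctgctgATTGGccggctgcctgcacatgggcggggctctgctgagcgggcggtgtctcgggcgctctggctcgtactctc
Ebp (chrX:8193463-8193762, minus strand): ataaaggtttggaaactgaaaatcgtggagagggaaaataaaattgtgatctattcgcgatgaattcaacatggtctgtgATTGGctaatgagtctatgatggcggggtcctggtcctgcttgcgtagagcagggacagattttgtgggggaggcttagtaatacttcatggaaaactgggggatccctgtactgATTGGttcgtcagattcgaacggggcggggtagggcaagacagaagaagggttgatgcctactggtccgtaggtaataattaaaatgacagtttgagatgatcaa
Fads2 (chr19:10101454-10101753, minus strand): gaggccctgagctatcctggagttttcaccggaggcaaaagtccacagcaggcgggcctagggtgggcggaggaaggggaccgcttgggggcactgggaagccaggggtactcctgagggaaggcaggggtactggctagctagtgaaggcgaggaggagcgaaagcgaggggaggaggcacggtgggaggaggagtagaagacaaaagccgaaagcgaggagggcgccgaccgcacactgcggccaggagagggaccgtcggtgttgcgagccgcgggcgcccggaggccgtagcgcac
Idi1 and Ebp each held 2 such boxes and Sc5d held 1; Idi1 and Sc5d fell and Ebp rose. No CCAAT lay in the window of Fads2, which rose.

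RefSeq windows were at hand for 27 of the 36 genes. CCAAT was read on both strands and occurred in 14 of 15 sterol arm genes (93.3%), in 3 of 6 fatty acid arm genes (50%) and in 4 of 5 regulators (80%). Among all 27025 genes of the promoter table it occurred in 41.1%, and among the 10884 of them tested here in 42.4%. A gene counted if any of its windows held the match, and the 5 regulators had 10 windows. Of these windows 5 held CCAAT, beside 12289 of the 32851 windows of all genes. The GGGCGG box bound by Sp1 was in 14 of 15 sterol arm genes (93.3%) and in 2 of 6 fatty acid arm genes (33.3%), beside 38.2% of all genes in the table and 67.2% of those tested. CACGTG, the E-box, was in 3 of 15 sterol arm genes (20%) and 1 of 6 fatty acid arm genes (16.7%), beside 8.09% of all genes in the table and 11.4% of those tested. The sterol regulatory element in the form TCACNCCAC was found in 1 window, that of Hmgcs1, beside 1.44% of all genes. Neighbouring matches of different motifs can share letters, and a match is only a run of letters.

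The first steps lead from acetyl-CoA to the isoprenoid units, and here the genes split. Of 6 tested, 3 rose and 3 fell, beside 35.4% higher and 35.5% lower among all genes tested. Their median log2 fold change was 0.23. Hmgcs1, the synthase that makes HMG-CoA, could not be measured: it had 0 counts in all 6 libraries. In the annotation of the files it lies only on the unplaced contig of chromosome 13, and all 63 genes annotated only on such contigs had no count, so its 0 is no expression level. Acat2, which joins acetyl-CoA units in the cytosol, had 21.4, 22.3 and 24.3 CPM in KMT2D KO libraries, against 12.8, 12.6 and 15.4 CPM in KMT2D WT libraries. Its log2 fold change was 0.74 ± 0.10 (adjusted p = 7.5e-06). Every KMT2D KO library lay above every KMT2D WT library, as in 37.2% of all genes tested. In the GENCODE M21 transcripts 39.1% of its 50-base stretches were shared with its paralog Acat3, so its counts are uncertain.

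Mevalonate is then phosphorylated by Mvk and Pmvk and decarboxylated by Mvd. Mvk had 11.8, 10.7 and 11.4 CPM in KMT2D KO libraries and 13.4, 14.1 and 13.6 CPM in KMT2D WT libraries. Its small fall (log2 fold change -0.28 ± 0.09, adjusted p = 0.015) was not called without KMT2D KO replicate 2 (adjusted p = 0.095) or with no low-count filter (0.054). Both enzymes after it rose, by nearly the same amount. Pmvk had 9.14, 9.75 and 8.48 CPM in KMT2D KO libraries, against 6.07, 5.34 and 4.63 CPM in KMT2D WT libraries (log2 fold change 0.77 ± 0.13, adjusted p = 9.6e-05). Mvd had 11.5, 10.5 and 12.3 CPM in KMT2D KO libraries, against 6.84, 6.68 and 6.26 CPM in KMT2D WT libraries (log2 fold change 0.79 ± 0.11, adjusted p = 1.6e-05). In both genes the libraries of the groups did not overlap, as in 74.3% of all genes tested.

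Idi1, the isomerase that balances the isoprenoid units, had the largest fall among the enzymes. It had 2.96, 3.00 and 4.06 CPM in KMT2D KO libraries, against 13.5, 13.2 and 12.8 CPM in KMT2D WT libraries, a log2 fold change of -1.99 ± 0.14 (adjusted p = 5.7e-09). The KMT2D KO libraries thus held 0.252 times the KMT2D WT level. Idi1 lies on chromosome 13 (mm9, 8884852 to 8891642, plus strand), where the median of all 566 tested genes was -0.54, the lowest of any autosome, and relative to that median its change was -1.45. Of its sequence, 25.3% of the 50-base stretches occur in other transcripts as well, most of them in the pseudogene Gm13502, so its level is uncertain. Fdps, which condenses the units to farnesyl diphosphate, had 24.4, 23.9 and 24.3 CPM in KMT2D KO libraries and 30.8, 32.6 and 27.8 CPM in KMT2D WT libraries (log2 fold change -0.33 ± 0.08, adjusted p = 0.0015). It also shares 26.2% of its stretches, mostly with Gm43738.

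From squalene to cholesterol the balance was toward lower levels. Of 11 genes tested, 7 fell, 2 rose and 2 were not called, beside 35.5% lower and 35.4% higher among all genes tested. Their median log2 fold change was -0.27. Fdft1, squalene synthase, had 32.5, 32.8 and 30.0 CPM in KMT2D KO libraries and 41.7, 45.3 and 46.0 CPM in KMT2D WT libraries (log2 fold change -0.48 ± 0.07, adjusted p = 1.9e-05). In the annotation 20.9% of its exonic bases overlap Ctsb, and fragments there were not assigned to either gene. Sqle, squalene epoxidase and a rate-limiting step, had 70.5, 70.0 and 69.1 CPM in KMT2D KO libraries and 92.5, 95.0 and 89.7 CPM in KMT2D WT libraries (log2 fold change -0.40 ± 0.05, adjusted p = 8.5e-06). The libraries of each group lay close together for both genes and the groups did not overlap, as in 74.3% of all genes tested.

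Lss, which closes the rings to lanosterol, was not called: it had 18.4, 18.8 and 19.7 CPM in KMT2D KO libraries and 19.3, 17.6 and 15.8 CPM in KMT2D WT libraries (log2 fold change 0.11 ± 0.09, adjusted p = 0.31). In the annotation 6.02% of its exonic bases overlap another gene. Nor was Tm7sf2, a sterol C14 reductase, at 4.94 to 5.66 CPM in KMT2D KO libraries and 4.62 to 5.77 CPM in KMT2D WT libraries (log2 fold change 0.03 ± 0.14, adjusted p = 0.88). The enzymes that strip methyl groups from lanosterol all fell. Cyp51, the demethylase at C14, had 59.3, 55.1 and 60.7 CPM in KMT2D KO libraries and 75.7, 65.4 and 70.6 CPM in KMT2D WT libraries (log2 fold change -0.27 ± 0.07, adjusted p = 0.002). Msmo1, the C4 methyl oxidase, had 24.3, 22.3 and 22.2 CPM in KMT2D KO libraries, against 41.5, 39.8 and 37.5 CPM in KMT2D WT libraries (log2 fold change -0.79 ± 0.07, adjusted p = 1.8e-07). Its partners at C4 are the dehydrogenase Nsdhl and the ketoreductase Hsd17b7. Nsdhl had 26.5, 24.8 and 25.9 CPM in KMT2D KO libraries and 30.0, 31.3 and 29.3 CPM in KMT2D WT libraries (log2 fold change -0.23 ± 0.07, adjusted p = 0.0095; 0.076 once KMT2D KO replicate 2 was left out). Hsd17b7 had 56.7, 55.7 and 58.0 CPM in KMT2D KO libraries, against 93.5, 97.2 and 102 CPM in KMT2D WT libraries (log2 fold change -0.78 ± 0.06, adjusted p = 1.1e-08). The groups did not overlap in any of these 4 demethylation genes, as in 74.3% of all genes tested. The falls of Msmo1 and Hsd17b7 were nearly equal.

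The last 3 enzymes moved in opposite directions. Ebp, the isomerase that shifts the double bond of the sterol ring, had 57.9, 61.1 and 51.9 CPM in KMT2D KO libraries, against 24.3, 25.3 and 22.8 CPM in KMT2D WT libraries (log2 fold change 1.24 ± 0.08, adjusted p = 1.4e-09). Sc5d, the next enzyme, a desaturase, had 34.7, 32.4 and 34.0 CPM in KMT2D KO libraries, against 99.1, 96.9 and 102 CPM in KMT2D WT libraries (log2 fold change -1.56 ± 0.06, adjusted p = 4.4e-12). Dhcr7, the reductase that finishes cholesterol, had 20.5, 19.1 and 17.9 CPM in KMT2D KO libraries, against 10.2, 11.5 and 15.0 CPM in KMT2D WT libraries (log2 fold change 0.65 ± 0.12, adjusted p = 0.00025). Per kilobase of exon, Ebp held 16.99% ± 1.29 of the summed level of the sterol arm in KMT2D KO and 5.91% ± 0.281 in KMT2D WT (SD, n = 3 each). Sc5d held 7.79% ± 0.25 in KMT2D KO and 18.9% ± 0.575 in KMT2D WT. These shares leave out Hmgcs1, which could not be measured. Of the measured transcripts of the arm, the most abundant was thus Ebp in KMT2D KO cells and Sc5d in KMT2D WT cells. Levels here were read in FPKM, which is CPM per kilobase of exon.

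**Figure D2:**
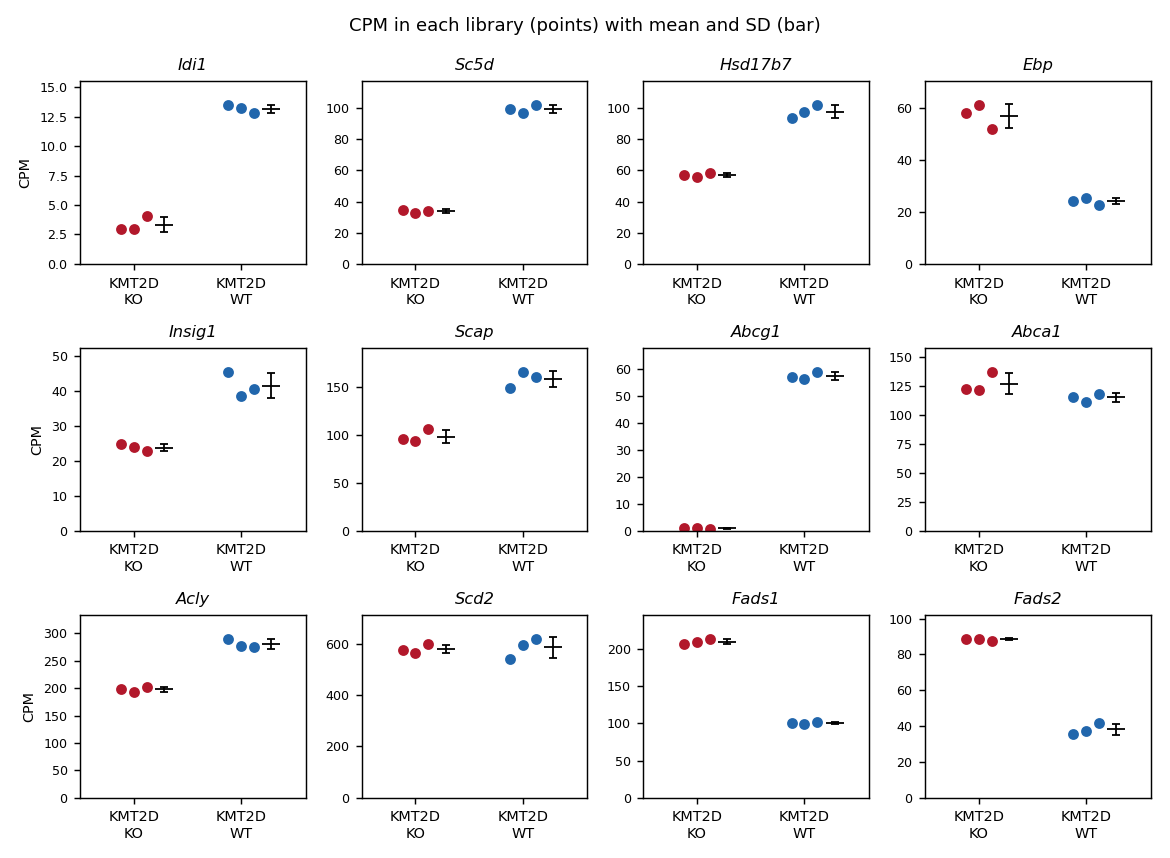
CPM (y axis, from 0) of 12 genes in each KMT2D KO library (red) and each KMT2D WT library (blue), with the mean and SD beside the points in black. Sc5d lies at 32.4 to 34.7 CPM in KMT2D KO and 96.9 to 102 CPM in KMT2D WT, Ebp at 51.9 to 61.1 CPM in KMT2D KO and 22.8 to 25.3 CPM in KMT2D WT, and Scd2 overlaps between the groups.

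Among the regulators the transcription factors themselves changed little. Srebf1 had 82.8, 87.8 and 86.9 CPM in KMT2D KO libraries and 83.6, 86.1 and 72.3 CPM in KMT2D WT libraries, and was not called (log2 fold change 0.09 ± 0.07, adjusted p = 0.26). Srebf2 had 74.2, 77.6 and 77.6 CPM in KMT2D KO libraries and 63.9, 73.3 and 67.6 CPM in KMT2D WT libraries (log2 fold change 0.16 ± 0.06, adjusted p = 0.029). That small rise was not called without KMT2D KO replicate 2 (adjusted p = 0.079), KMT2D KO replicate 3 (0.069) or KMT2D WT replicate 1 (0.096), nor when counts were scaled by library size alone (0.47). Both proteins are activated by cleavage, which RNA levels do not measure.

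Of the genes that control their cleavage, Scap and Insig1 fell. Scap, the escort protein, had 95.4, 93.5 and 106 CPM in KMT2D KO libraries, against 149, 166 and 161 CPM in KMT2D WT libraries (log2 fold change -0.69 ± 0.06, adjusted p = 1.2e-07). Insig1, an anchor that is itself an SREBP target, had 24.7, 24.0 and 22.7 CPM in KMT2D KO libraries, against 45.5, 38.6 and 40.5 CPM in KMT2D WT libraries (log2 fold change -0.80 ± 0.08, adjusted p = 2.9e-07). Relative to the medians of their chromosomes, 9 and 5, Scap stood at -0.39 and Insig1 at -0.44. Its paralog Insig2, which is regulated separately, was not called: it had 46.6, 46.2 and 47.8 CPM in KMT2D KO libraries and 46.9, 45.6 and 45.7 CPM in KMT2D WT libraries (log2 fold change 0.03 ± 0.06, adjusted p = 0.71). Per kilobase of exon, Insig1 stood at 8.99 ± 0.388 FPKM and Insig2 at 15.9 ± 0.276 FPKM in KMT2D KO cells (SD, n = 3 each). In KMT2D WT cells the paralogs were almost level, with Insig1 at 15.7 ± 1.35 FPKM and Insig2 at 15.6 ± 0.241 FPKM.

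The 2 paralogs' difference was tested on its own, as the log2 ratio of their CPM within each library. Insig1 over Insig2 stood at -0.90, -0.93 and -1.06 in KMT2D KO libraries and at -0.04, -0.24 and -0.17 in KMT2D WT libraries, a difference of -0.81. The groups did not overlap, and the exact two-sided permutation p was 0.1, the smallest that 3 against 3 libraries allow, so no pair can pass 0.05 (adjusted p = 0.15 over 6 pairs). Of the other pairs, Srebf1 over Srebf2 differed by -0.07 (exact p = 0.6, adjusted 0.6) and Scd1 over Scd2 by 0.07 (exact p = 0.3, adjusted 0.36), with overlapping libraries. Elovl6 over Elovl5 differed by 0.34 and Fads2 over Fads1 by 0.15, with libraries apart (exact p = 0.1 and adjusted 0.15 for each). For Fads2 over Fads1 the groups nearly touched, at -1.281 in KMT2D KO replicate 3 and -1.286 in KMT2D WT replicate 3.

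Sterol transport held the largest change of the 35 genes tested. Abcg1, a transporter that exports sterol to lipoproteins, had 1.13, 0.960 and 0.564 CPM in KMT2D KO libraries, against 56.9, 56.2 and 58.9 CPM in KMT2D WT libraries. Its log2 fold change was -5.97 ± 0.14 (adjusted p = 2e-14), so the KMT2D KO libraries held 0.016 times the KMT2D WT level. Abca1, which loads sterol onto apolipoprotein A and is driven by LXR as Abcg1 is, stayed high in both groups, at 123, 122 and 137 CPM in KMT2D KO libraries and 116, 111 and 118 CPM in KMT2D WT libraries. Its rise of 0.14 ± 0.06 (log2, adjusted p = 0.045) was not called without KMT2D KO replicate 3 (0.19), KMT2D WT replicate 1 (0.057) or KMT2D WT replicate 2 (0.12), nor with RLE size factors (0.063), library size alone (0.65), DESeq2 (0.059) or a minimum mean of 1 CPM (0.076). The log2 ratio of Abca1 over Abcg1 was 6.23, 6.39 and 7.02 in KMT2D KO libraries and 1.02, 0.98 and 1.00 in KMT2D WT libraries, a difference of 5.55 (exact two-sided permutation p = 0.1, adjusted 0.15). Per kilobase of exon, Abca1 stood at 12.4 ± 0.862 FPKM and Abcg1 at 0.152 ± 0.0502 FPKM in KMT2D KO cells, while in KMT2D WT cells Abca1 stood at 11.2 ± 0.343 FPKM and Abcg1 at 9.85 ± 0.242 FPKM (SD, n = 3 each).

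Of the genes for sterol transport inside the cell, Stard4, a soluble carrier, had 4.01, 4.2 and 4.10 CPM in KMT2D KO libraries and 6.07, 5.09 and 7.40 CPM in KMT2D WT libraries (log2 fold change -0.59 ± 0.16, adjusted p = 0.0035). It lies on chromosome 18, where the median of all tested genes was -0.50, and relative to that median its change was -0.08. Npc1, the lysosomal sterol exporter on the same chromosome, had 96.9, 96.2 and 102 CPM in KMT2D KO libraries and 87.0, 89.1 and 96.2 CPM in KMT2D WT libraries. It was not called (log2 fold change 0.12 ± 0.06, adjusted p = 0.084), although it was without KMT2D WT replicate 3 (adjusted p = 0.011) and with no low-count filter (0.044). Relative to the chromosome's median its change was 0.62.

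Among the fatty acid enzymes, the early steps were lower or not called. Acly, which supplies cytosolic acetyl-CoA to both arms, had 198, 193 and 201 CPM in KMT2D KO libraries, against 290, 276 and 275 CPM in KMT2D WT libraries (log2 fold change -0.51 ± 0.05, adjusted p = 3.4e-07). Acaca, the carboxylase that commits acetyl-CoA to fatty acids, had 58.1, 59.6 and 69.2 CPM in KMT2D KO libraries and 73.6, 70.9 and 71.3 CPM in KMT2D WT libraries (log2 fold change -0.21 ± 0.07, adjusted p = 0.014). Its call was lost without KMT2D KO replicate 1 (0.12) or replicate 2 (0.092), and 30.4% of its stretches occur elsewhere, mostly in Gm5182. Fasn, the fatty acid synthase, had 199.7, 195 and 218 CPM in KMT2D KO libraries and 214, 220.3 and 228 CPM in KMT2D WT libraries. It was not called (log2 fold change -0.11 ± 0.06, adjusted p = 0.087), and it was without KMT2D KO replicate 3 (0.038), with the replicate block (0.048) or with library size alone (0.002).

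The elongation and desaturation genes differed among themselves. Elovl5, which elongates polyunsaturated chains, fell, with 68.3, 70.8 and 73.9 CPM in KMT2D KO libraries and 88.9, 85.2 and 82.1 CPM in KMT2D WT libraries (log2 fold change -0.27 ± 0.06, adjusted p = 0.00078). Elovl6, which elongates palmitate, was not called, at 26.9, 26.4 and 29.6 CPM in KMT2D KO libraries and 26.9, 27.5 and 24.3 CPM in KMT2D WT libraries (log2 fold change 0.07 ± 0.08, adjusted p = 0.44). The stearoyl-CoA desaturases, which make monounsaturated fatty acids, include the most abundant transcript of the 35 genes tested, Scd2. It stood at 106 ± 2.94 FPKM in KMT2D KO and 107 ± 7.46 FPKM in KMT2D WT (SD, n = 3 each). Scd2 had 576, 565 and 597 CPM in KMT2D KO libraries and 540, 596 and 619 CPM in KMT2D WT libraries (log2 fold change -0.01 ± 0.06, adjusted p = 0.83). Scd1 had 320, 305 and 325 CPM in KMT2D KO libraries and 277, 298 and 338 CPM in KMT2D WT libraries (log2 fold change 0.06 ± 0.07, adjusted p = 0.46). Neither was called, though Scd1 was (at 0.14) once KMT2D WT replicate 3 was left out (adjusted p = 0.02).

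The delta desaturases of polyunsaturated fatty acids rose together. Fads1 had 207, 209 and 214 CPM in KMT2D KO libraries, against 101, 99.3 and 102 CPM in KMT2D WT libraries (log2 fold change 1.06 ± 0.05, adjusted p = 7e-11). Fads2 had 88.7, 88.8 and 87.7 CPM in KMT2D KO libraries, against 35.7, 37.3 and 41.6 CPM in KMT2D WT libraries (log2 fold change 1.21 ± 0.07, adjusted p = 3.1e-10). They are neighbours on mm9 chromosome 19, Fads2 at 10138654 to 10175993 on the minus strand and Fads1 at 10257378 to 10271362 on the plus strand. Fads3, a related gene next to Fads2 at 10116038 to 10134161, was looked at after its value was seen. It averaged 181 CPM in KMT2D KO and 90.7 CPM in KMT2D WT, a log2 fold change of 1.00. The 3 genes of this cluster thus lay at similar fold changes, while the median of chromosome 19 was 0.17.

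The arms were compared by their summed FPKM, which weighs each gene by its level per kilobase of exon. Hmgcs1 adds 0 to these sums. The sterol arm summed to 192 ± 2.57 FPKM in KMT2D KO and 234 ± 1.21 FPKM in KMT2D WT (SD, n = 3 each). The difference lay after squalene: these steps summed to 145 ± 3.28 FPKM in KMT2D KO and 187 ± 0.434 FPKM in KMT2D WT, while the steps before it summed to 47.4 ± 1.09 FPKM in KMT2D KO and 46.9 ± 1.6 FPKM in KMT2D WT. The fatty acid arm summed to 393 ± 8.90 FPKM in KMT2D KO and 353 ± 13.2 FPKM in KMT2D WT. That order does not hold under every scaling: on the TPM scale, which sets the length-adjusted sum of all genes equal in each library, the fatty acid arm summed to 884 ± 12.6 in KMT2D KO and 916 ± 53.0 in KMT2D WT. The sum of the sterol arm was lower in KMT2D KO under TMM, RLE, library size and TPM scaling.

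A ratio of the arms within a library does not depend on the scaling. Sterol over fatty acid arm was 0.499, 0.497 and 0.471 in KMT2D KO libraries, against 0.688, 0.667 and 0.633 in KMT2D WT libraries. All KMT2D KO libraries lay below all KMT2D WT libraries, with means of 0.489 in KMT2D KO and 0.663 in KMT2D WT. How far single genes weigh in the ratio was looked at after seeing the data. With Fads1 and Fads2 left out, the means were 0.703 in KMT2D KO and 0.784 in KMT2D WT, and with Sc5d left out they were 0.451 in KMT2D KO and 0.538 in KMT2D WT. With all 3 left out they were 0.648 ± 0.0264 in KMT2D KO and 0.636 ± 0.0292 in KMT2D WT (SD, n = 3 each), and the libraries overlapped. These 3 genes changed strongly in the direction of the difference, so leaving them out had to narrow it. Ebp changed strongly the other way, and without it the means were 0.406 in KMT2D KO and 0.624 in KMT2D WT. With Sc5d, Ebp, Fads1 and Fads2 all left out they were 0.528 ± 0.0139 in KMT2D KO and 0.589 ± 0.0258 in KMT2D WT (SD, n = 3 each), and the libraries of the groups were again apart. With Scd1 and Scd2 left out, which together made up 43.6% of the fatty acid arm in KMT2D KO and 48.1% in KMT2D WT, the means were 0.869 in KMT2D KO and 1.28 in KMT2D WT.

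**Figure D3:**
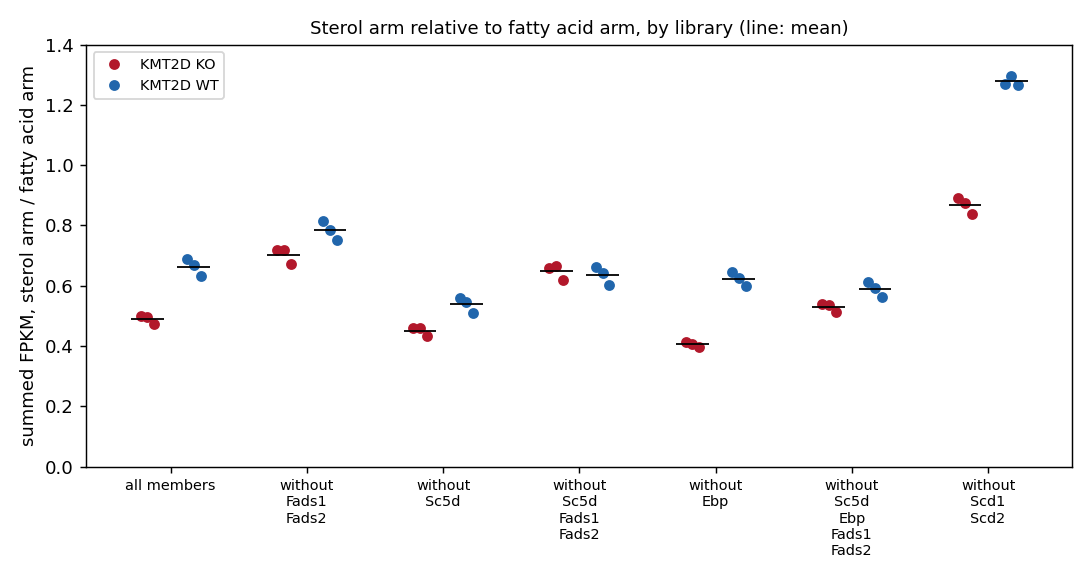
Summed FPKM of the sterol arm over that of the fatty acid arm (y axis, from 0) in each KMT2D KO library (red) and each KMT2D WT library (blue), for all genes and with the named genes left out; lines are means. The groups are apart for all genes (0.471 to 0.499 in KMT2D KO, 0.633 to 0.688 in KMT2D WT) and overlap with Sc5d, Fads1 and Fads2 left out; they are apart (0.513 to 0.538 in KMT2D KO, 0.562 to 0.613 in KMT2D WT) with Ebp left out as well.

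Counted by gene instead of by level, the median log2 fold change was -0.27 in the sterol arm and -0.01 in the fatty acid arm, a difference of -0.26. Without KMT2D WT replicate 1 this difference was -0.17. The positions of the genes differ between the arms, and the fold changes differed between chromosomes: medians over all tested genes were -0.54 on chromosome 13, -0.36 on chromosome 5 and -0.30 on chromosome 9, and 0.17 on chromosome 19, 0.19 on X and 0.21 on chromosome 8. Of the fatty acid genes, Scd1, Scd2, Fads1 and Fads2 lie on chromosome 19 and Acly, Acaca and Fasn on chromosome 11. Relative to the median of its own chromosome, the sterol arm had a median of -0.15 and the fatty acid arm of -0.12, a difference of -0.03. The 2 parts of the sterol arm lay on opposite sides of 0 on this relative scale. The median was 0.33 for the mevalonate and isoprenoid steps and -0.35 for the steps from squalene to cholesterol, beside 0.23 and -0.27 before centring. Mvk, Cyp51 and Elovl5 were near their chromosome's median, with relative changes of 0.08, 0.08 and 0.03, whereas Sc5d at -1.26, Idi1 at -1.45, Msmo1 at -0.999, Ebp at 1.05 and Fads2 at 1.04 were not. Nsdhl on X stood at -0.42 and Abca1 on chromosome 4 at 0.01 on this relative scale. What lies behind the chromosome medians was not tested.

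**Figure D4:**
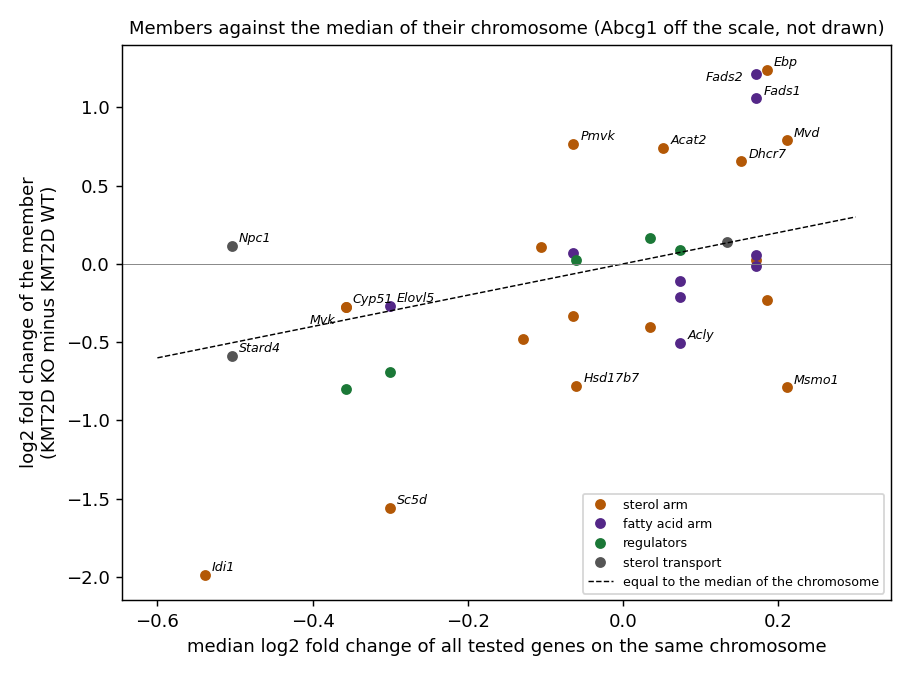
Log2 fold change (KMT2D KO minus KMT2D WT, y axis) of 34 genes against the median log2 fold change of all tested genes on the same chromosome (x axis); points on the dashed line moved as much as their chromosome. Cyp51, Mvk and Elovl5 lie near the line, and Idi1, Sc5d, Msmo1, Ebp and both Fads genes lie far from it; Abcg1 is off the scale.

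Other genes of the same pathways were drawn from 4 lists of 60 genes, of which 55 were tested, 24 rose, 19 fell and 12 were not called. That is 78.2% called (43.6% higher and 34.5% lower), beside 71.0% of all genes tested (35.4% higher and 35.5% lower). Of 11 other sterol and isoprenoid enzymes, 3 rose and 4 fell (63.6% called). Lbr, a second sterol C14 reductase in the nuclear envelope, rose with 33.2 ± 0.686 CPM in KMT2D KO and 25.5 ± 2.33 CPM in KMT2D WT (SD, n = 3 each; log2 fold change 0.38 ± 0.08, adjusted p = 0.00054). Pggt1b, a subunit of the enzyme that attaches isoprenoids to proteins, fell (log2 fold change -0.68 ± 0.08, adjusted p = 2.6e-06), on chromosome 18.

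Of 10 tested SREBP and LXR regulators, 2 rose and 3 fell (50% called, beside 71.0% of all genes tested). Nr1h3, which encodes LXR alpha, had 0.352, 0.228 and 0.226 CPM in KMT2D KO libraries, against 4.14, 3.07 and 2.26 CPM in KMT2D WT libraries (log2 fold change -3.52 ± 0.33, adjusted p = 1.9e-07). Its level was low in both groups, and Nr1h2, which encodes LXR beta, was not called (81.4 ± 0.338 CPM in KMT2D KO and 74.6 ± 6.65 CPM in KMT2D WT, SD, n = 3 each). Of genes that LXR activates, Abcg1 fell and Abca1 was called higher, while Srebf1 and Mylip were not called (Nr1h2 and Mylip were looked at after their values were seen). Erlin1, an endoplasmic reticulum protein that restrains SREBP, fell as well (log2 fold change -0.85 ± 0.07, adjusted p = 8.2e-08). Rnf139, a ubiquitin ligase of the same membrane, and Mbtps1, the site-1 protease that makes the first cut in SREBP, rose by 0.34 ± 0.06 (adjusted p = 0.00016) and 0.14 ± 0.05 (adjusted p = 0.019) on the log2 scale.

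Of 10 other sterol uptake, storage and transport genes, 7 were called higher (70%) and 2 lower (20%). Of all genes tested, 35.4% were called higher and 35.5% lower. Scarb1, the receptor for high-density lipoprotein, had 138, 145 and 134 CPM in KMT2D KO libraries, against 35.5, 37.1 and 36.9 CPM in KMT2D WT libraries (log2 fold change 1.93 ± 0.06, adjusted p = 3e-13). Vldlr, a receptor for triglyceride-rich lipoprotein, had 222, 221 and 229 CPM in KMT2D KO libraries, against 92.0, 88.3 and 101 CPM in KMT2D WT libraries (log2 fold change 1.26 ± 0.06, adjusted p = 5.1e-11). For both receptors the groups were far apart and the libraries within a group close together. Osbpl1a, an oxysterol-binding protein, fell by 0.32 ± 0.08 on the log2 scale (adjusted p = 0.002).

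Of 24 tested fatty acid enzymes outside the main set, 12 rose and 10 fell, so 91.7% were called (50% higher and 41.7% lower), beside 71.0% of all genes tested. Acacb, the mitochondrial carboxylase, had 10.5, 11.7 and 11.6 CPM in KMT2D KO libraries, against 3.52, 2.68 and 3.89 CPM in KMT2D WT libraries (log2 fold change 1.75 ± 0.14, adjusted p = 4.5e-08). Elovl7, an elongase of saturated chains, had 6.75, 7.26 and 6.15 CPM in KMT2D KO libraries, against 0.838, 0.452 and 0.358 CPM in KMT2D WT libraries (log2 fold change 3.58 ± 0.24, adjusted p = 5.2e-09). Me1, the malic enzyme that makes cytosolic NADPH, fell with 33.3, 34.1 and 33.3 CPM in KMT2D KO libraries, against 90.2, 82.2 and 87.2 CPM in KMT2D WT libraries (log2 fold change -1.37 ± 0.06, adjusted p = 2.9e-11). Hacd3, a dehydratase of the elongation cycle, had 58.6, 58.5 and 57.1 CPM in KMT2D KO libraries, against 129, 122 and 120 CPM in KMT2D WT libraries (log2 fold change -1.09 ± 0.05, adjusted p = 1.4e-10). Elovl4 and Elovl1 were looked at after their values were seen. Elovl4 rose by 0.64 ± 0.19 on the log2 scale (adjusted p = 0.0085), and Elovl1 was not called (0.10 ± 0.08, adjusted p = 0.26). The elongases tested thus differed among themselves: Elovl7 and Elovl4 rose, Elovl5 fell, and Elovl6 and Elovl1 were not called.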

How the data were processed

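The members and gene lists were chosen with earlier results of these data known. The deposited values are whole-number counts of fragments per gene, summed by the authors over annotated exons (mm9) with featureCounts 1.5.2, per the file headers. The recorded command was unstranded and did not ask for multi-mapping or multi-overlapping fragments, which the tool then skips. The submitters' processing notes name STAR, HTSeq and mm9 without their roles. The exon lengths used for FPKM are those deposited by the authors, an other column of the same files. Coordinates of genes are mm9, counted from 1; promoters are RefSeq windows of GRCm38.p6, and no coordinates were carried between the builds.

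The fit over the whole table used R 4.3.3 and edgeR 4.0.16 (quasi-likelihood F test, TMM, filterByExpr, group as the sole term), and p-values were adjusted by Benjamini-Hochberg over 14579 genes. Adjusted p-values of genes are from this test unless another is named, log2 fold changes run KMT2D KO minus KMT2D WT, and the SE is the fold change divided by the square root of F. The script was tested on simulated data. CPM were computed on TMM-scaled library sizes, and FPKM by dividing them by exon length in kilobases. Paralog ratios used log2 of CPM plus 0.5. Alternatives were RLE size factors, library size alone, DESeq2 1.42.0, limma 3.58.1 voom, no filter, a mean of at least 1 CPM, a robust empirical Bayes fit, a replicate block, centring on chromosome medians and leaving out each library. Sums by arm under other scalings, and arm ratios with genes left out, were added after seeing the data. Within a group, no library was a copy of another (chi-square per degree of freedom of 9.33 to 21.2).

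All 36 members were named, and from each related list up to 2 called genes that rose and 2 that fell with the largest change at a mean of at least 1 CPM. Some genes that this rule took are not reported here. The overlap of exons comes from the files' annotation, and shared stretches of 50 bases from GENCODE M21 transcripts.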

Additional observations from a re-analysis of the deposited data

How the results depend on the processing

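Among the 36 genes, those with changes beyond 0.3 on the log2 scale were called under every alternative test, scaling, filter and left-out library; smaller changes that crossed the threshold (Mvk, Nsdhl, Srebf2, Abca1, Npc1, Acaca, Fasn and Scd1) are given above. Genes called over the whole table numbered 9371 to 10798. Scaling by library size alone shifted the median of all genes by -0.11 and gave medians of -0.38 in the sterol arm, -0.13 in the fatty acid arm and -0.22 over the 35 tested genes. It gave sums in KMT2D KO over KMT2D WT of 0.761 for the sterol arm and 1.03 for the fatty acid arm, and TPM gave 0.714 and 0.965, the second reversed from 1.11. Relative to chromosome medians the arms stood at -0.15 and -0.12, a difference of -0.030, and Mvk, Cyp51 and Elovl5 changed sign to 0.080, 0.084 and 0.034. Leaving out 1 library gave -0.28 to -0.22 for the sterol arm, -0.066 to 0.023 for the fatty acid arm, -0.15 to -0.07 for the 35 tested genes and -0.29 to -0.17 for the difference of the arms. The ratio of the arms, KMT2D KO over KMT2D WT, was 0.738 with all genes and 0.722 to 0.753 with 1 library left out. It was 0.897 without Fads1 and Fads2, 0.839 without Sc5d, 1.02 without these 3 (reversed), 0.651 without Ebp, 0.897 without all 4, and 0.680 without Scd1 and Scd2. With a prior of 1 CPM, Abca1 over Abcg1 differed by 5.10. The causes of these shifts, beyond what each alternative changes by construction, were not tested. Libraries with the same number correlated by 0.01, 0.07 and 0.05 in their deviations from the group means, and those with different numbers by -0.08 to 0.04. Correlations this small, from 3 libraries a group, cannot show whether the numbers pair the libraries. The replicate block gave 10368 genes called against 10345, and among the 36 genes it changed only the call of Fasn. Total counts were at least 43168605, with 3 libraries a group; which of these limits a value more was not tested. Hmgcs1 has no measured level in these files.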
